A study of Mus musculus with 24 samples.

Results

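The mitosis genes are 40 genes that a cell transcribes in preparation for division, and they were taken by symbol from a table of read counts for 21669 mouse genes, in which all 40 have a row. They encode the cyclins and kinases that start mitosis, the kinetochore and checkpoint proteins that attach and count chromosomes, the motors of the spindle, the machinery that starts anaphase and the proteins that separate the daughter cells. All 40 passed the filter on low counts in both cell lines studied here. The lowest count of any of them in any library was that of Pttg1, at 208 reads.

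RNA was sequenced from K-Luc, a luciferase-expressing derivative of the mouse glioma line KR158B (C57BL/6 origin), and from RAW-Blue, the mouse macrophage line RAW 264.7 with a secreted phosphatase reporter for NF-κB and AP-1. Cells of each line received SWNT/CpG (single-walled carbon nanotubes dispersed in the oligonucleotide CpG-28), CpG+SWNT/LP (the oligonucleotide together with nanotubes dispersed in lipid-PEG), CpG (the oligonucleotide alone), SWNT/LP (nanotubes in lipid-PEG alone), or water as the untreated control. Every ingredient was at 10 µg/mL, and cells had adhered for 24 h in culture-insert chambers of a migration assay, 10000 cells per chamber. Treatment lasted 17 to 19 h in K-Luc, also plated outside the chambers, and 47 to 50 h in RAW-Blue, plated inside them only. K-Luc has 3 libraries in each treated group and 2 untreated, and RAW-Blue has 2 libraries in every group. Each line is a single established line, so the groups describe these cell cultures and not tumours or tissue macrophages, and no group received an oligonucleotide without CpG. Separate cultures are not stated for the replicates. The p-values here therefore speak of the spread among these libraries alone, and that spread may be technical.

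Transcripts of these genes are low in G1 and peak in G2 and M phase, and their level in a culture is widely used as a readout of proliferation. In cycling cells the MuvB complex, joined by B-Myb (Mybl2) and FoxM1 (Foxm1), binds a short promoter element called the cell cycle genes homology region (CHR), and NF-Y binds CCAAT boxes upstream of it. In resting cells the same CHR is bound by the repressive DREAM complex. As RNA came from whole cultures, fewer cells in G2 and M phase and less of these transcripts per cell cannot be told apart.

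RefSeq promoter windows on the build GRCm38.p6, from 250 bases before to 50 after the annotated start, were matched to 34 of the 40 genes by symbol. The other 6 were Aurkb, Ccna2, Kif20a, Tpx2, Foxm1 and Incenp. Both strands were searched for the CHR (TTTGAA), for its variant TTCGAA and for the CCAAT box (CCAAT). The CHR was present in 26 of the 34 genes (76.5%), against 17.9% of all 32851 windows and 13.6% of the other genes tested in K-Luc that have a window. A CCAAT box was present in 26 of the 34 (76.5%), against 37.4% of all windows and 43.4% of those other genes. The TTCGAA variant was in 3 of the 34 (8.82%), against 1.56% of all windows and 2.5% of those other genes. Both the CHR and a CCAAT box were in 23 of the 34 (67.6%), against 6.95% of all windows and 5.51% of those other genes. Among the 40 genes 1 match of the CHR overlapped a CCAAT box. In 24 genes the CHR lay within 30 bases before and 50 bases after the start, which was not counted in other genes. None of the 3 motifs was in the windows of Birc5, Mad2l1, Nuf2, Nusap1 and Pttg1. In 31 of the 36 windows of these genes (some have more than 1) the last 30 bases are found in an annotated transcript of the gene, and in those of Aurka, Kif11, Kif23, Kif2c and Mad2l1 they are not, so the start is less sure there.

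Windows of 4 genes that hold both motifs are shown together with that of Pttg1, the gene whose transcript departed from the rest in K-Luc. Each runs 5′ to 3′ along the gene's own strand to 30 bases after the start. The windows of the 4 begin 150 bases before the start and that of Pttg1 250 bases before it, and capitals mark the motif letters on either strand. Cdc20 is at chr4:118437314-118437493 (minus strand), Cdk1 at chr10:69352883-69353062 (minus strand), Ccnb2 at chr9:70421525-70421704 (minus strand), Kif11 at chr19:37376232-37376411 (plus strand) and Pttg1 at chr11:43425952-43426231 (minus strand).
Cdc20: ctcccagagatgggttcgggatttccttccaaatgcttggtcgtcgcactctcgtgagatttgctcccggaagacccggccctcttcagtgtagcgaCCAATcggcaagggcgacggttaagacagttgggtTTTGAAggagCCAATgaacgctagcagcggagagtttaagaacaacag
Cdk1: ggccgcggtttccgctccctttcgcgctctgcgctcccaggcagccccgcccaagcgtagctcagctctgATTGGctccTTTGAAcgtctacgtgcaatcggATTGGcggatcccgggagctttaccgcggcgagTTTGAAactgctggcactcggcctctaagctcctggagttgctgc
Ccnb2: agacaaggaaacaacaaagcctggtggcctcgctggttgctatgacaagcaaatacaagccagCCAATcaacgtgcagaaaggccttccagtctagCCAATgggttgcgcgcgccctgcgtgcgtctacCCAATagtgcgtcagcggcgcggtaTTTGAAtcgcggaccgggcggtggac
Kif11: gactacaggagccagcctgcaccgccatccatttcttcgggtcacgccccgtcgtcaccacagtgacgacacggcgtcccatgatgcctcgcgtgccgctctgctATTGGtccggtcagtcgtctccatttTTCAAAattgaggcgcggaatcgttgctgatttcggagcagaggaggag
Pttg1: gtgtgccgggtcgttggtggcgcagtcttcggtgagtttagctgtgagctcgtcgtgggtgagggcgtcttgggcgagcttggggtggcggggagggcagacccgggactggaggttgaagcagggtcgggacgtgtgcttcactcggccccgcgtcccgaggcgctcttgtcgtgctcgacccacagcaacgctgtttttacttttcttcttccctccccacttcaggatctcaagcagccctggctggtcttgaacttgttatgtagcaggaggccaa
In Cdc20 the CHR begins 18 bases before the start and CCAAT boxes begin 53 and 8 bases before it. In Cdk1 a CHR begins 71 and another 15 bases before the start, each with an inverted CCAAT box upstream. In Ccnb2 a CHR begins at base 5 after the start, another begins 167 bases before it, outside the stretch shown, and 3 CCAAT boxes lie upstream. In Kif11 both motifs are inverted, with the CHR beginning 19 bases before the start. A match describes these letters in this window only, and binding was not measured.

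The libraries hold 13318636 to 24130359 counts each, and levels are given in CPM, counts scaled to the size of each library. K-Luc had the glial markers Sox2 and Nes at 1 RPKM or more (2 of 8 listed, Olig2 listed at 0), the macrophage markers Lyz2 and Cd14 (2 of 8, with Ptprc, Adgre1, Itgam and Fcgr3 at 0), and the mesenchymal genes Col1a1, Col3a1 and Pdgfra (3 of 8 fibroblast and vessel markers, Lum and Cdh5 at 0). RAW-Blue had 8 of 8 macrophage markers, 0 of 8 fibroblast and vessel markers and 1 of 8 glial markers at that level. In RAW-Blue, untreated replicate 1 stood apart from the other libraries. A gene's length can be read from the ratio of its counts to the authors' RPKM, and over 9735 genes this library's deviation from the mean log2 level of all 10 RAW-Blue libraries had a Spearman correlation with that length of -0.293, against 0.206 in untreated replicate 2 and -0.0412 to 0.194 in the 8 treated libraries. Its counts differed from those of replicate 2 with a chi-square of 43.2 per degree of freedom, against 1.95 to 14.5 for the other pairs of replicates in both lines. The counts of the 40 genes in each RAW-Blue treatment against untreated are therefore given with and without it, and for SWNT/CpG the medians too. With either untreated library left out 1 control remains, which the fit assumes to vary as the other groups do. The share of all genes called was counted only in the main fits. Counts of calls from any other setting, in either line, therefore cannot be set against those shares.

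**Figure D1:**
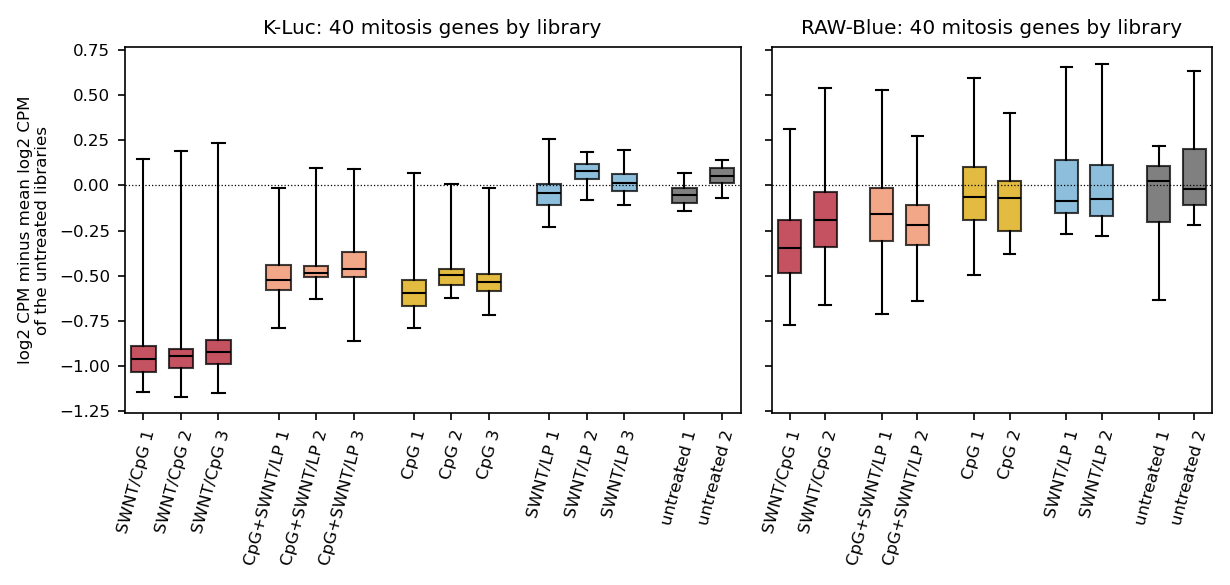
Level of the 40 mitosis genes in each library, as log2 CPM minus the mean of the line's untreated libraries, for K-Luc (left, 14 libraries) and RAW-Blue (right, 10 libraries). Boxes span the quartiles of the 40 genes with the median as a line, and whiskers reach the lowest and highest gene. In K-Luc the medians of the SWNT/CpG libraries lie at -0.97 to -0.92 and those of the untreated libraries at -0.054 and 0.054, while in RAW-Blue the SWNT/CpG medians are -0.35 and -0.19.

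In K-Luc cells given SWNT/CpG rather than water, 39 of the 40 genes fell, and together the 40 genes took 0.545 to 0.558% of all counts in the 3 SWNT/CpG libraries, against 1.04 and 1.13% in the 2 untreated ones. The median log2 fold change was -0.98, a median fold of 0.508, with quartiles of -1.02 and -0.92, while the median over all 12420 genes tested was 0.0097. Of all genes tested 21.3% were called lower and 21.8% higher at an adjusted p under 0.05 in edgeR's quasi-likelihood test. The 39 calls had adjusted p-values of 4.37e-10 to 5.22e-07. In each of the 39 genes all 3 SWNT/CpG libraries were below both untreated libraries, as in 27.1% of all genes. Replicate 1 of the untreated, SWNT/CpG and CpG+SWNT/LP groups of K-Luc came from sequencing run 1 and all other libraries from run 2. Within run 2 alone the median was -1.01, with 39 genes lower, but 1 untreated library then remains and the other groups supply the spread. The 1 exception, Pttg1, is described below.

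The engine of mitotic entry fell as a whole. Cyclin B1 (Ccnb1), which activates Cdk1 at the onset of mitosis, had 39.5, 33.2 and 32.95 CPM in the SWNT/CpG libraries, against 72.6 and 73.96 CPM in the untreated ones. Its kinase Cdk1 had 119, 131 and 137 CPM in SWNT/CpG libraries, against 223 and 272 CPM in untreated ones, and the transcription factor Foxm1 had 148, 153 and 156 CPM, against 261 and 267 CPM. The groups did not overlap for any of these. The log2 fold changes were -1.05 ± 0.096 for Ccnb1, -0.98 ± 0.072 for Cdk1 and -0.80 ± 0.042 for Foxm1 (± SE, n = 3 and 2, log2 scale as throughout, edgeR adjusted p = 5.22e-07, 3.91e-08 and 1.03e-09 in that order). Cyclin A2 (Ccna2) fell by 0.99 and cyclin B2 (Ccnb2) by 0.83 on the log2 scale.

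Kinases that drive entry and spindle assembly were among the strongest falls. Plk1, a kinase of centrosome maturation and many later steps, had 63.7, 61.8 and 63.7 CPM in SWNT/CpG libraries, against 133 and 128 CPM in untreated ones (log2 fold change -1.05 ± 0.053). Aurka, the spindle pole kinase, had the lowest value of all 40 genes (-1.09 ± 0.065), followed by Cdca3, an adaptor in the destruction of the mitotic inhibitor Wee1 (-1.09 ± 0.054), and by Espl1, the separase that cleaves cohesin (-1.08 ± 0.072). Tpx2, the activator of Aurora A, fell too (-0.92 ± 0.051).

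All 4 measured subunits of the chromosomal passenger complex, which corrects faulty attachments of chromosomes, fell. Its kinase Aurkb had 45.2, 49.3 and 51.6 CPM in SWNT/CpG libraries, against 91.8 and 105 CPM in untreated ones, a log2 fold change of -1.04 ± 0.052. Survivin (Birc5), the scaffold Incenp and borealin (Cdca8) had -0.95 ± 0.064, -0.88 ± 0.054 and -0.75 ± 0.047. Cdca8 fell least of the 39 genes, with Racgap1 (-0.80 ± 0.042) and Foxm1 next to it.

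At the kinetochore, the motor Cenpe had 170.4, 162 and 158 CPM in SWNT/CpG libraries, against 313 and 319 CPM in untreated ones (-0.95 ± 0.046), and the 4 others of this group (Cenpa, the histone H3 variant of the centromere, Cenpf, Ndc80 and Nuf2) fell by 0.87 to 1.02. The 4 checkpoint genes, which hold back anaphase until chromosomes are attached, fell by 0.93 to 1.03. Among them the checkpoint kinase-like protein BubR1 (Bub1b) had 109, 111 and 113 CPM in SWNT/CpG libraries, against 205 and 216 CPM in untreated ones. The libraries of the groups were apart in every one of these 9 genes.

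The spindle motor Kif11, which pushes the poles apart, had 179, 181 and 194 CPM in SWNT/CpG libraries, against 347 and 387 CPM in untreated ones (-1.01 ± 0.057). The 6 motors and microtubule proteins fell by 0.83 (Kif4) to 1.05 (Hmmr). Of the genes of anaphase and protein destruction, Cdc20, the activator of the anaphase-promoting complex, had 83.4, 83.6 and 84.5 CPM in SWNT/CpG libraries, against 159 and 177 CPM in untreated ones, and its ubiquitin-conjugating partner Ube2c had a log2 fold change of -1.01 ± 0.066.

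The genes of the central spindle and cytokinesis fell by 0.80 to 0.98. Kif20a, a motor of the central spindle, had 164, 172 and 171 CPM in SWNT/CpG libraries, against 299 and 349 CPM in untreated ones, and Ect2, the activator of RhoA at the cleavage furrow, had 162, 157 and 150.1 CPM, against 298 and 298 CPM. Of the chromatin genes, topoisomerase IIα (Top2a), which untangles chromosomes, had 713, 722 and 744 CPM in SWNT/CpG libraries, against 1395 and 1516 CPM in untreated ones. The proliferation marker Mki67 had 626, 727 and 728 CPM, against 1208 and 1403 CPM. The 2 groups of libraries were separate in each, with log2 fold changes of -1.02 ± 0.062 for Top2a and -0.95 ± 0.055 for Mki67.

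Pttg1 encodes securin, the inhibitor that keeps separase inactive until anaphase, and it was not called. It had 18.6, 19.2 and 19.7 CPM in SWNT/CpG libraries, 16.6, 17.98 and 17.9 CPM in CpG+SWNT/LP libraries, 17.6, 16.9 and 16.6 CPM in CpG libraries, 20.1, 18.8 and 19.2 CPM in SWNT/LP libraries and 15.6 and 18.05 CPM in untreated ones. The 3 SWNT/CpG libraries lay above both untreated libraries, as in 29.3% of all genes, a difference that did not pass the test (0.16 ± 0.073, edgeR adjusted p = 0.0836). Its distance from the median of the 40 genes was over 0.3 and over 2 of its standard errors in each comparison of an oligonucleotide group with untreated, and no other gene met that rule there. Per length Pttg1 was the lowest of the 40 genes in untreated K-Luc cells, at 6.50 ± 0.707 RPKM (SD, n = 2), against a median of 36.2 RPKM over the 40 and 176 ± 10.1 RPKM for Top2a, the highest. Its enzyme partner Espl1 fell by 1.08 in the same libraries. The other 4 genes with none of the 3 promoter motifs fell by 0.95 (Mad2l1 and Birc5) to 1.02 (Nuf2), and the median of the 26 genes with a CHR was -0.98, against -0.97 in the 8 without, Pttg1 among them.

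**Figure D2:**
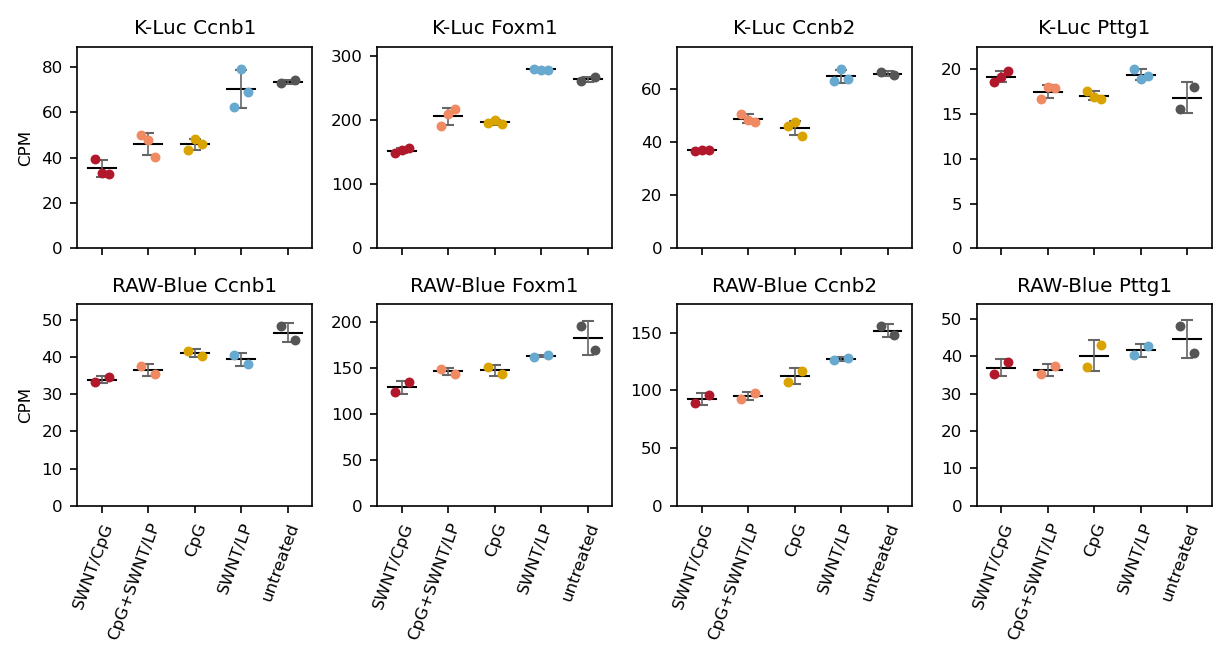
CPM of Ccnb1, Foxm1, Ccnb2 and Pttg1 in every library of K-Luc (top) and RAW-Blue (bottom), by group, with the group mean as a line and the SD as an error bar (n = 3, or 2 for untreated K-Luc and all RAW-Blue groups). The group means of Ccnb1, Foxm1 and Ccnb2 are lowest in SWNT/CpG cells of both lines, while K-Luc Pttg1 stays between 15.6 and 20.1 CPM in all 14 libraries.

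Summed levels of the marker lists are given beside this fall. The summed RPKM of the 8 fibroblast and vessel markers was 1151 to 1266 in SWNT/CpG, 986 to 1062 in CpG+SWNT/LP, 1019 to 1205 in CpG, 583 to 808 in SWNT/LP and 615 to 796 in untreated K-Luc libraries. That of the 8 glial markers was 47.7 to 50.8 in SWNT/CpG and 59.0 to 64.3 in untreated libraries. That of the 8 macrophage markers was 5.8 to 6.6 in SWNT/CpG and 5.0 to 6.5 in untreated libraries. Of the markers that could be tested between SWNT/CpG and untreated K-Luc, 2 of 5 fibroblast and vessel markers and 1 of 4 macrophage markers rose and 1 of 6 glial markers fell, against 21.8% higher and 21.3% lower among all genes. The median log2 fold change of the 6 glial markers was 0.14, of opposite sign to the change in their summed RPKM. Their part in the result was not tested.

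The oligonucleotide alone lowered every one of the genes but Pttg1, and less far. Between CpG and untreated K-Luc libraries the median log2 fold change of the 40 genes was -0.58, a fold of 0.670, and 39 genes were called lower, against 18.4% of all genes tested (17.9% called higher). Ccnb1 had 43.4, 48.1 and 45.97 CPM, Foxm1 196, 200.1 and 194 CPM and Mki67 881, 986 and 1002 CPM in CpG libraries, each below both untreated libraries given above. The strongest falls were those of Bub1, a checkpoint kinase (-0.72 ± 0.080), Cdk1 (-0.69 ± 0.075) and Aurka (-0.67 ± 0.068), and the weakest among the called genes those of Racgap1 (-0.42 ± 0.044), which helps to build the central spindle, and Incenp (-0.47 ± 0.058). Pttg1 was at -0.045 ± 0.075.

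With the oligonucleotide and the lipid-coated nanotubes given together, the median was -0.51, a fold of 0.703, with 39 genes lower, against 17.8% of all genes (16.1% higher). Within run 2 alone, with the 1 untreated library, the medians of CpG and CpG+SWNT/LP were -0.61 and -0.54, with 39 genes lower in each. Ccnb1 had 49.8, 47.8 and 40.2 CPM and Foxm1 191, 209 and 217 CPM in these libraries. Ccnb1 (-0.66 ± 0.093), Aurka (-0.62 ± 0.064) and Bub1 (-0.59 ± 0.075) were the lowest and, besides Pttg1 (0.032 ± 0.072), Incenp (-0.36 ± 0.054) and Racgap1 (-0.37 ± 0.042) the highest. The 4 comparisons with untreated share the same 2 untreated libraries, so their values are set side by side without a test of likeness.

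The lipid-coated nanotubes alone left the genes near the untreated level. The median of the 40 genes was -0.020, with 28 below and 12 above 0. None was called by edgeR or by DESeq2 and 0 had an unadjusted p under 0.05, while 0.0403% of all genes were called lower and 0.0886% higher. The values ran from -0.091 ± 0.068 in Aurka to 0.14 ± 0.075 in Pttg1. Ccnb1 had 62.4, 79.2 and 68.9 CPM in SWNT/LP libraries, a range that holds both untreated values.

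SWNT/CpG was also set against the other treatments in the same line. Against CpG+SWNT/LP, which brings the same ingredients plus lipid, SWNT/CpG had a median of -0.47 with 39 genes lower, against 9.12% of all genes (8.54% higher). Aurkb (-0.60 ± 0.047), Plk1 (-0.59 ± 0.048) and Espl1 (-0.56 ± 0.065) were lowest, and the smallest differences among the called genes were those of Cdca8 (-0.35 ± 0.043) and Ccnb1 (-0.39 ± 0.089). In all 39 genes the 3 SWNT/CpG libraries were below the 3 CpG+SWNT/LP libraries, where 14.6% of all genes showed this. Aurkb, for one, had 67.6, 74.96 and 78.8 CPM in CpG+SWNT/LP libraries.

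Against CpG alone the median was -0.39, with 39 genes lower, against 7.58% of all genes. Pttg1 was the 1 gene called higher (0.21 ± 0.064, edgeR adjusted p = 0.0393), in a comparison where 7.29% of all genes were. That call was lost in 10 of 14 alternative settings, where its adjusted p ran from 0.0077 to 0.151, and its log2 fold change stayed between 0.17 and 0.24. Plk1 (-0.52 ± 0.050), Cdc20 (-0.49 ± 0.043) and Aurkb (-0.46 ± 0.049) were lowest. Against SWNT/LP the median was -0.95 with 39 genes lower, against 20.2% of all genes (21.5% higher), and Cdca3 (-1.10 ± 0.051) was lowest. These 3 comparisons share the SWNT/CpG libraries.

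Whether the oligonucleotide and the lipid-coated nanotubes act together other than by adding up was tested as an interaction. The median of the 40 genes was 0.099, and 38 of the 40 values were above 0, with the highest in Cdk1 (0.22 ± 0.11) and Espl1 (0.19 ± 0.11). No gene was called by edgeR or DESeq2, 3 had an unadjusted p under 0.05, and 0% of all genes were called.

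**Figure D3:**
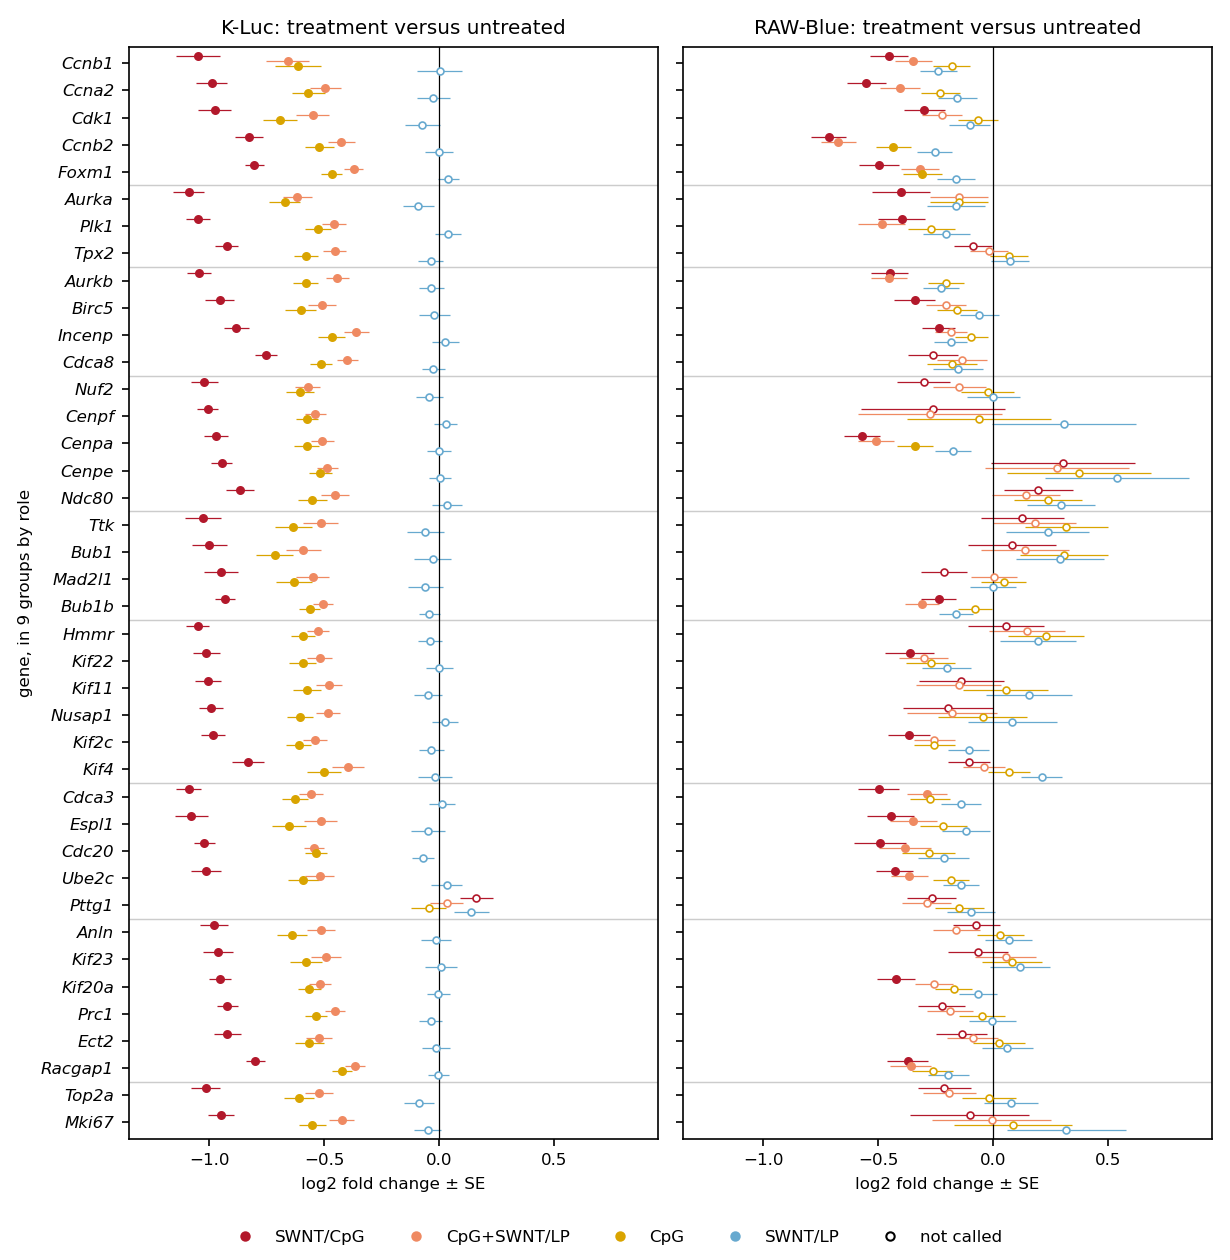
Log2 fold change against untreated (± SE) of each of the 40 genes, in 9 groups by role, for the 4 treatments in K-Luc (left) and RAW-Blue (right). Filled points passed an adjusted p of 0.05. In K-Luc 39 genes form bands near -0.98 for SWNT/CpG, -0.58 for CpG and -0.51 for CpG+SWNT/LP with Pttg1 apart, and in RAW-Blue 20 genes are filled for SWNT/CpG, with wide error bars in Cenpe, Cenpf and Mki67.

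Genes that work beside the 40 moved to different degrees in SWNT/CpG-treated K-Luc, where 21.3% of all genes were called lower and 21.8% higher. Of 30 other mitotic genes, 29 were tested and 29 fell (median -0.99), among them Cep55, which acts at the last step of cytokinesis (-1.06 ± 0.047), the phosphatase Cdc25b (-0.93 ± 0.046) and the spindle protein Ckap2 (-1.04 ± 0.057). All 22 DNA replication genes fell (median -0.88), with Mcm5, a subunit of the replicative helicase, at -0.93 ± 0.085. Of 16 condensin and cohesin genes 15 fell (median -0.56), with the condensin subunits Ncapg at -1.09 ± 0.062 and Ncapd2 at -0.92 ± 0.046. Of the 14 genes of MuvB, DREAM and NF-Y, which bind the promoter motifs above, 9 fell and 0 rose (median -0.34), with the MuvB subunits Lin54 at -0.77 ± 0.074 and Lin9 at -0.82 ± 0.083. Of 16 genes for the anaphase-promoting complex and its adaptors 8 fell and 1 rose (median -0.20), led by its inhibitor Fbxo5 (-0.93 ± 0.082). Of 12 CDK inhibitors and p53 targets tested (15 listed), 1 fell and 6 rose (median 0.14). The one that fell was Cdkn2c, an inhibitor of CDK4 and CDK6 (-0.51 ± 0.053), and Gadd45a (1.38 ± 0.22), Btg2 (0.60 ± 0.12) and Gadd45b (0.57 ± 0.12), which restrain growth under stress, were among those that rose.

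In RAW-Blue macrophages the genes moved less, a difference tested further on. With SWNT/CpG 20 of the 40 genes fell and none rose, against 10.4% and 12.8% of all 11514 genes tested, and the median log2 fold change was -0.27, a fold of 0.831. The 40 genes took 0.607 and 0.679% of all counts in the SWNT/CpG libraries, against 0.694 and 0.849% in the untreated ones. The counts from refits that follow have no share over all genes beside them. With only the compared groups in the fit 3 genes were called lower, and 8 or 13 without SWNT/CpG replicate 1 or 2. Without untreated replicate 1, 31 genes were called lower and 0 higher (median -0.28). Without untreated replicate 2 instead, 22 were called lower and 9 higher (median -0.34). Called lower in both were 18 genes: Cdc20, Aurkb, Plk1, Ccnb1, Ccnb2, Ccna2, Cdk1, Bub1b, Kif20a, Kif2c, Birc5, Cdca3, Ube2c, Cenpa, Espl1, Foxm1, Racgap1 and Incenp.

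Cyclin B2 (Ccnb2) and Cenpa fell furthest in these macrophages. Ccnb2 had 88.7 and 95.9 CPM in SWNT/CpG libraries, against 156 and 148 CPM in untreated ones, a log2 fold change of -0.72 ± 0.077 (edgeR adjusted p = 0.000176). Cenpa had 74.8 and 78.2 CPM, against 121 and 107 CPM (-0.57 ± 0.079). Both departed downward from the median of the 40 genes. Without untreated replicate 1 the log2 fold changes were -0.68 for Ccnb2 and -0.48 for Cenpa. Ccna2 was next, at -0.55 ± 0.085. Ccnb1 had 33.2 and 34.6 CPM in SWNT/CpG libraries, against 48.3 and 44.7 CPM in untreated ones, and Foxm1 had 124 and 134 CPM, against 196 and 169.6 CPM. Each of the 5 genes of the cyclin and transcription group was called lower (-0.72 to -0.30).

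Of the kinases, Plk1 had 104 and 109 CPM in SWNT/CpG libraries, against 157 and 123 CPM in untreated ones (-0.40 ± 0.10, and -0.21 without untreated replicate 1), and Aurkb had 96.0 and 102 CPM, against 145 and 127 CPM (-0.45 ± 0.079). Of the genes of anaphase and protein destruction 4 of 5 were called lower, among them Cdc20, with 76.7 and 80.9 CPM in SWNT/CpG libraries, against 125 and 96.5 CPM in untreated ones. Pttg1, the fifth, had 35.3 and 38.5 CPM, against 48.2 and 40.95 CPM, and its -0.27 ± 0.11 lay at the median of the 40 genes but did not pass the test. In Plk1, Aurkb, Cdc20 and Pttg1 untreated replicate 1 was the highest of the 4 libraries.

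Several genes that were not called had untreated libraries far apart. Cenpe had 171 and 199.9 CPM in SWNT/CpG libraries, against 89.3 and 211 CPM in untreated ones, so the treated values lay between the controls (0.30 ± 0.31). Mki67 had 1144 and 1275 CPM, against 856 and 1742 CPM (-0.10 ± 0.26), and Kif11 had 176 and 201 CPM, against 158 and 258 CPM. In these 3 genes untreated replicate 1 was the lowest and untreated replicate 2 the highest of the 4 libraries. The checkpoint kinase Ttk (0.13 ± 0.18) and the kinetochore protein Ndc80 (0.20 ± 0.15) departed upward from the median without passing the test. Over the 40 genes the log2 fold change had a Spearman correlation of 0.574 with the implied length, which became 0.000375 without untreated replicate 1 and 0.607 without replicate 2, over genes that share their libraries. With the fold changes corrected for length in each library, a setting chosen after these data were seen, 23 genes were lower and the median was -0.34.

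**Figure D4:**
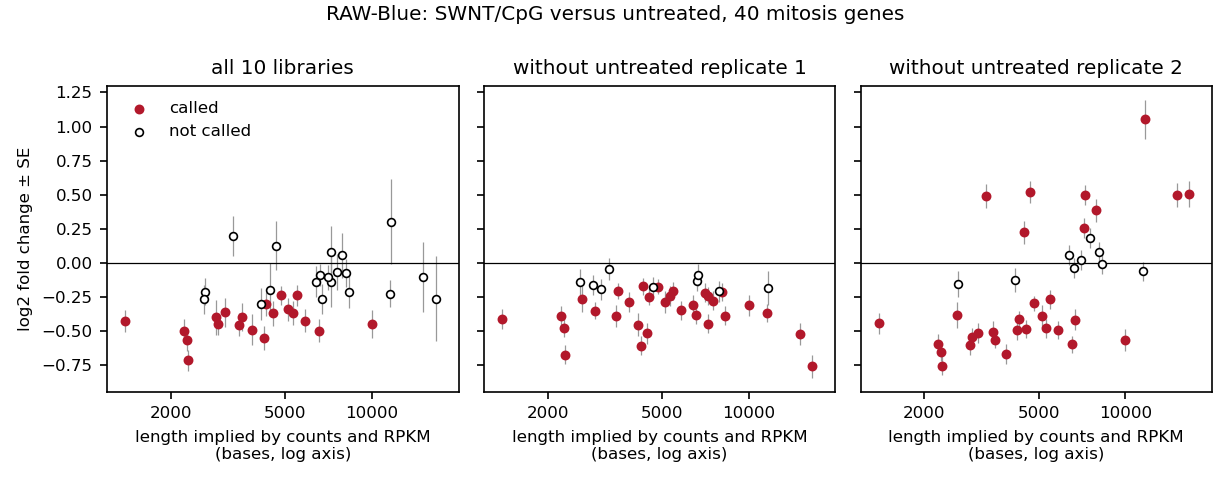
Log2 fold change between SWNT/CpG and untreated RAW-Blue libraries (± SE) of the 40 genes against the length implied by the counts and the authors' RPKM (bases, log axis), with all 10 libraries, without untreated replicate 1 and without untreated replicate 2. Filled points passed an adjusted p of 0.05. The number of genes called lower is 20, 31 and 22 in the 3 panels, and 9 genes are called higher in the last.

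For the other treatments of RAW-Blue the counts are given side by side, and their difference from SWNT/CpG is tested further on. With CpG+SWNT/LP 13 were lower and 0 higher, against 10.1% of all genes in each direction (median -0.20), led by Ccnb2 (-0.68 ± 0.076), Cenpa (-0.51 ± 0.079) and Plk1 (-0.49 ± 0.10). Without untreated replicate 1 that count was 20 lower, and without replicate 2 it was 22 lower and 10 higher. With CpG alone the median was -0.088 and 3 genes were lower, not far from the 5.6% of all genes (5.18% higher). The 3 were Ccnb2 (-0.44 ± 0.076), Cenpa (-0.34 ± 0.079) and Foxm1 (-0.31 ± 0.085), and the count was 0 with only the compared groups in the fit. Without untreated replicate 1 it was 9 genes, and without replicate 2 it was 20 lower and 13 higher, and these 3 genes were lower in both. Bub1 (0.31 ± 0.19), Ttk (0.32 ± 0.18) and Ndc80 (0.24 ± 0.15) departed upward from the median without a call, and Ndc80, Ttk and Hmmr did so with CpG+SWNT/LP.

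With SWNT/LP alone no member was called by edgeR or DESeq2 and 5 had an unadjusted p under 0.05 (median -0.083, all genes 0.0434% lower and 0.434% higher). Its lowest values were those of Ccnb2 (-0.26 ± 0.076), Ccnb1 (-0.24 ± 0.081) and Aurkb (-0.23 ± 0.078), and its highest those of Cenpe (0.54 ± 0.31), Mki67 (0.32 ± 0.26) and Cenpf (0.31 ± 0.31). Without untreated replicate 1 the count was 0 as well, and without replicate 2 it was 17 lower and 14 higher. Ccnb2 had 92.6 and 97.4 CPM in CpG+SWNT/LP libraries, 107 and 117 CPM in CpG libraries and 126 and 128 CPM in SWNT/LP libraries, all below both untreated libraries. All 4 comparisons share the untreated pair.

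Comparisons among the treated RAW-Blue groups do not use the untreated libraries. Against SWNT/LP, SWNT/CpG had a median of -0.23, with all 40 values below 0 and 7 genes called lower, against 4% of all genes (6.3% higher). These were Ccnb2 (-0.46 ± 0.076), Cenpa, Ccna2, Cdca3, Kif20a, Foxm1 and Ube2c. Leaving out any 1 of the 4 libraries of the 2 groups left 0 to 3 calls, while with only the compared groups in the fit there were 31. The libraries of 37 genes did not overlap, against 34.3% of all genes in that direction.

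Against CpG, SWNT/CpG had a median of -0.19, again with all 40 values below 0, from -0.32 ± 0.085 in Ccna2 to -0.042 ± 0.15 in Ndc80. No gene was called by edgeR or DESeq2 (all genes 0.174% lower and 0.669% higher), and 11 had an unadjusted p under 0.05, while edgeR fitted on the compared groups only called 11 genes lower. In 36 genes both SWNT/CpG libraries were below both CpG libraries, against 27.1% of all genes. Against CpG+SWNT/LP the median was -0.063, with 31 values below 0, 0 calls by edgeR and DESeq2 (all genes 0.356% lower and 0.469% higher), 1 unadjusted p under 0.05 and 1 call lower with only the compared groups. The interaction of CpG and SWNT/LP had a median of -0.042, 0 calls by either tool, 0% of all genes called and 1 unadjusted p under 0.05.

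The neighbouring gene lists were counted in SWNT/CpG-treated RAW-Blue too, with both untreated libraries only. Among all genes 10.4% were called lower and 12.8% higher. The lower counts of the DNA replication genes and the anaphase-promoting complex were not far from that share. Of the other mitotic genes 6 of 29 fell and 0 rose (median -0.11), with Kif18b at -0.38 ± 0.094. Of the condensin and cohesin genes 4 of 16 fell, with Ncapd2 at -0.59 ± 0.077, although the list's median was 0.18. Of the DNA replication genes 3 of 22 fell, all of them helicase subunits (Mcm7 at -0.50 ± 0.10), and of MuvB, DREAM and NF-Y 4 of 14, among them Mybl2 (-0.39 ± 0.11). For the anaphase-promoting complex 1 of 16 fell (Anapc13, -0.55 ± 0.11). Of the CDK inhibitors and p53 targets 2 fell and 3 rose of 12 tested, with Gadd45a at 2.63 ± 0.21 and Cdkn2c at -0.65 ± 0.094. Of the markers that could be tested, 2 of 8 macrophage markers fell and 2 rose, 1 of 3 glial markers fell and 1 rose, and 2 of 3 fibroblast and vessel markers rose, the summed RPKM of the last list being 0.4 to 0.5 in SWNT/CpG and 0 to 0.2 in untreated libraries.

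Whether the response differed between the lines was tested in 1 fit of all 24 libraries, as the response of RAW-Blue minus that of K-Luc. Line goes with treatment time and plating, so these cannot be told apart. For SWNT/CpG the median difference was 0.68, and 37 of the 40 genes had a higher (less negative or positive) value in RAW-Blue and 1 a lower one, against 14.4% and 11.1% of all 13350 genes tested. The difference was widest in Cenpe (1.25 ± 0.30), Ttk (1.16 ± 0.18) and Hmmr (1.11 ± 0.15), genes in which untreated RAW-Blue replicate 1 was the lowest library of its line. It was smallest among the called genes in Foxm1 (0.30 ± 0.096) and was not called in Ccnb2 (0.11 ± 0.099, edgeR adjusted p = 0.488), which fell in both lines. Pttg1 alone went the other way (-0.44 ± 0.13, edgeR adjusted p = 0.0166), a call that was lost in 5 of 17 alternative settings, among them without untreated RAW-Blue replicate 1 (-0.29, edgeR adjusted p = 0.0845). The median difference was 0.69 without untreated RAW-Blue replicate 1, with 38 genes higher and 0 lower, and 0.52 without replicate 2, with 37 higher and 1 lower.

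In the same test of the SWNT/CpG response, 27 of 29 other mitotic genes were higher in RAW-Blue than in K-Luc (median 0.85), as were 20 of 22 DNA replication genes (0.74) and 13 of 16 condensin and cohesin genes (0.62), with 0 lower in each list. Of the MuvB, DREAM and NF-Y genes 6 of 14 were higher and 1 lower (0.32). For the anaphase-promoting complex 1 of 16 was higher and 2 lower (0.20), and of the CDK inhibitors and p53 targets 2 of 12 were higher and 4 lower (-0.15). Among all genes 14.4% were higher and 11.1% lower.

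For CpG the median difference was 0.47, with 28 genes higher in RAW-Blue and 0 lower, against 11.3% and 10.6% of all genes, and the widest called in Bub1 (1.01 ± 0.20) and Ttk (0.94 ± 0.18). For CpG+SWNT/LP it was 0.28, with 12 higher and 0 lower, against 12.7% and 11.3% of all genes, and without untreated RAW-Blue replicate 1 it was 21 higher and 0 lower. For SWNT/LP it was -0.063, with 0 called by edgeR or DESeq2, 4 at an unadjusted p under 0.05, and 0.127% higher and 0.0599% lower among all genes, while without untreated RAW-Blue replicate 2 it was 10 higher and 13 lower. Across the 40 genes the SWNT/CpG log2 fold changes of the lines had a Pearson correlation of 0.025, a description over genes that share libraries.

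**Figure D5:**
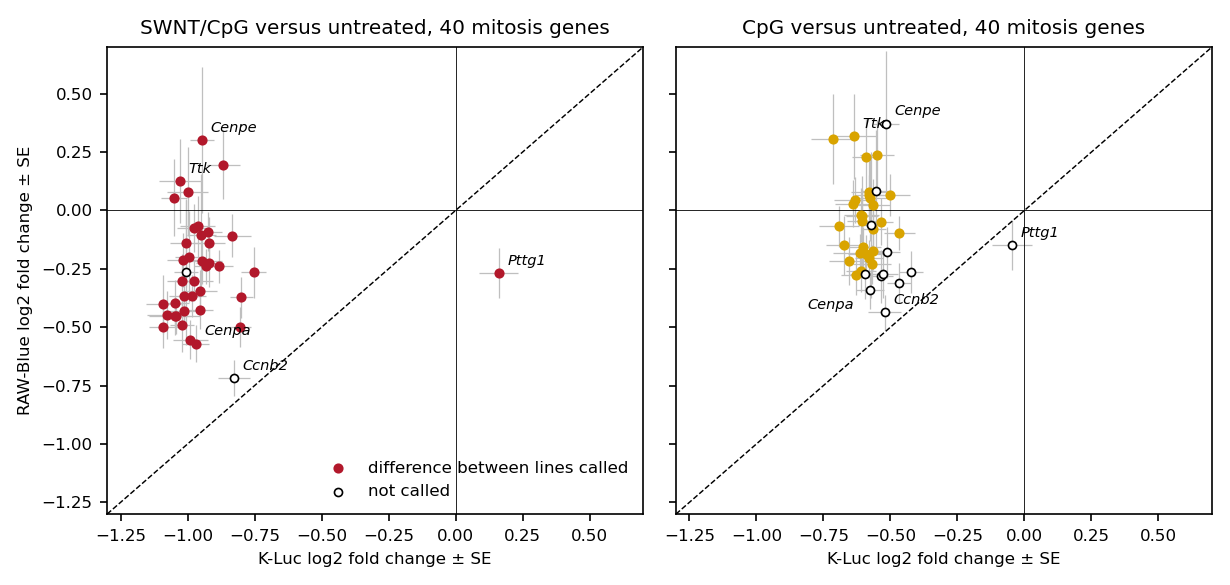
Log2 fold change against untreated (± SE) of the 40 genes in RAW-Blue (vertical) and K-Luc (horizontal), for SWNT/CpG (left) and CpG (right), with the line of equal response dashed. Filled points have a called difference between the lines. For SWNT/CpG 37 genes are filled above the dashed line, Ccnb2 lies close to it at -0.72 in RAW-Blue and -0.83 in K-Luc, and Pttg1 is filled below it.

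Cells given water also differed between the lines in these genes. Treatment time (17 to 19 h in K-Luc, 47 to 50 h in RAW-Blue) and plating went with line, so these cannot be told apart. Untreated RAW-Blue had a median of 26.7 RPKM over the 40 genes, against 36.2 RPKM in untreated K-Luc. Of the 40, 28 were lower and 5 higher in RAW-Blue, in a comparison in which 40.9% of all genes were lower and 37% higher, and the median log2 difference was -0.56. The largest differences downward were in the cytokinesis genes Ect2 (-1.44 ± 0.092) and Anln (-1.39 ± 0.090), then Cenpf (-1.06 ± 0.24), which was at -0.62 without untreated RAW-Blue replicate 1 and at -1.84 without replicate 2. Without replicate 1 the counts were 28 lower and 7 higher, and without replicate 2 they were 31 lower and 8 higher. The 5 higher genes were Pttg1 (1.37 ± 0.10), Ccnb2 (1.25 ± 0.078), Aurkb (0.41 ± 0.075), Incenp (0.38 ± 0.075) and Bub1b (0.29 ± 0.069). Pttg1 had 15.8 ± 2.19 RPKM in untreated RAW-Blue and 6.50 ± 0.707 RPKM in untreated K-Luc (SD, n = 2 each).

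Some of these counts can include reads of other genes. A stretch of at least 300 bases at 90% identity or more in another transcript was found for 15 of the 40 genes, 6 of them with the other gene in the count table. The 15 include Ccnb1, Cdc20, Cenpe and Plk1, which have processed pseudogenes that are not in the count table. The exons of 8 genes (Ccna2, Cdc20, Cdca8, Kif20a, Kif4, Nusap1, Prc1 and Ube2c) overlap those of a counted gene on the other strand, and the strand setting of the counting is not given in the sources used here. No near copy and no overlap with a counted gene was found for Pttg1, Ccnb2, Foxm1, Aurkb, Cenpa or Mki67.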

How the data were processed

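Polyadenylated RNA was sequenced from 24 libraries, 14 of K-Luc and 10 of RAW-Blue. Per the submitters' processing notes, reads were handled with TopHat2 2.0.14 and HTSeq 0.6.0 on the mouse build mm9, and the sources used here do not give the gene annotation or the strand setting. Raw read counts per gene, and a separate table of RPKM values per gene and library, are what the authors deposited. Libraries were grouped by the labels.

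The members and gene lists were chosen with earlier results of these data known. Counts were tested in edgeR 4.0.16 (R 4.3.3, limma 3.58.1) with TMM scaling, the default filterByExpr limits (10 and 15 reads) and the robust quasi-likelihood test, on all genes that passed, with Benjamini-Hochberg adjustment and a threshold of 0.05. K-Luc was fitted with group and sequencing run, RAW-Blue with group, and another fit held both lines. Over K-Luc the run term was called in 2155 of 12420 genes and in 7 of the 40 members, with a median of -0.08 over the members. CPM are TMM-scaled, and the standard error is the log2 fold change divided by the root of F. The deposited RPKM served levels per length, markers (1 RPKM or more) and the length implied for each gene. Interaction means CpG+SWNT/LP minus CpG minus SWNT/LP plus untreated.

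The genes given library by library were 13 anchors of the roles. In each comparison the 3 lowest, the 3 highest, those against the sign and those departing from the median by over 0.3 and over 2 standard errors were considered for naming, and of the other lists at most 4 members of smallest adjusted p. Fits were tested on simulated data. Near copies were sought with blastn 2.17.0. Alternatives were DESeq2 1.42.0, its size factors, no filter, no run term, the compared groups only, run 2 alone, each library left out, a replicate block and a length correction. Replicate numbers were not taken to pair the samples, as over all tested genes same-numbered libraries did not all deviate together. Over the 10407 K-Luc genes at 1 RPKM or more they did, with correlations of 0.179 to 0.701, which goes against that choice.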

Additional observations from a re-analysis of the deposited data

Results flagged for a closer look

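These values stood out because the response of the same gene differed between the lines in the fit of all 24 libraries, as RAW-Blue minus K-Luc on the log2 scale. For SWNT/CpG the response of 38 of the 40 genes differed, while 14.4% of all genes were higher in RAW-Blue and 11.1% lower. Pttg1 had -0.44 and was the 1 gene with a lower value in RAW-Blue. Foxm1 had 0.30, Hmmr 1.11, Ttk 1.16 and Cenpe 1.25. For CpG the response of 28 genes differed (all genes 11.3% higher and 10.6% lower), with Ttk at 0.94 and Bub1 at 1.01. For CpG+SWNT/LP the response of 12 genes differed (all genes 12.7% higher and 11.3% lower), with Ttk at 0.69 and Bub1 at 0.72. Hmmr, Ttk, Cenpe and Bub1 were lowest in untreated RAW-Blue replicate 1 among the libraries of that line. Their differences without that library are not given here. Line, treatment time and plating cannot be told apart.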

How the results depend on the processing

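For K-Luc the 39 lower calls against untreated remained 39 with the replicate block, and the RAW-Blue counts with it were 18 for SWNT/CpG, 2 for CpG, 0 for SWNT/LP and 12 for CpG+SWNT/LP. Same-numbered K-Luc libraries had correlated deviations of -0.0337 to 0.507 (20 of 26 pairs over 0.1, own number best in 44 of 52) over all tested genes but of 0.179 to 0.701 over the 10407 genes at 1 RPKM or more (26 of 26 pairs over 0.1, own number best in 52 of 52), and RAW-Blue libraries of -0.099 to 0.181 (4 of 20 pairs over 0.1, own number best in 24 of 40). The labels give no shared source, and the number was not taken as a pairing from all tested genes, a choice the well-expressed K-Luc genes go against. Of the alternative values of the medians and counts, 742 stayed within set limits and 83 moved beyond them, and the causes were not tested. A median stayed if it shifted by less than the pooled within-group SD of the library medians, so one near 0 could change sign. A count stayed if it kept within a set ratio. The call of Pttg1 higher in SWNT/CpG than in CpG K-Luc became 0 with DESeq2, without the filter, without the run term, with the compared groups only and in run 2 alone. The K-Luc median against SWNT/LP was -1.01 under the length correction with the replicate block. That correction, chosen after seeing the data, gave -0.338 for RAW-Blue SWNT/CpG. With the compared groups only, which leaves few degrees of freedom, RAW-Blue lower calls were 3 for SWNT/CpG, 0 for CpG and 1 for CpG+SWNT/LP against untreated, and for SWNT/CpG 1 against CpG+SWNT/LP, 11 against CpG and 31 against SWNT/LP. The difference between lines had a median of 0.602 (DESeq2) or 0.603 (its size factors) for SWNT/CpG, with 0 lower calls with the compared groups only or run 2 alone. With the compared groups only it had 3 higher calls for CpG and 1 for CpG+SWNT/LP, and the untreated lines had 2 higher and 17 lower. Lower calls of that difference for CpG+SWNT/LP were 2 with DESeq2, with its size factors and with the length correction, and 1 with the replicate block.

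With 1 library left out, the K-Luc medians ran from -1.01 to -0.919 for SWNT/CpG, -0.608 to -0.528 for CpG and -0.541 to -0.451 for CpG+SWNT/LP, and Pttg1 gave 0 to 1 higher call against CpG. In RAW-Blue, SWNT/CpG had medians of -0.36 to -0.198, 8 to 31 lower and 0 to 9 higher calls, CpG -0.163 to -0.0745, 0 to 20 and 0 to 13, SWNT/LP 0 to 17 and 0 to 14 calls, and CpG+SWNT/LP -0.274 to -0.173, 3 to 22 and 0 to 10. SWNT/CpG had medians of -0.129 to -0.00437 against CpG+SWNT/LP, -0.259 to -0.116 against CpG and -0.305 to -0.17 against SWNT/LP, the last with 0 to 3 lower calls. The interaction had 0 to 15 lower and 0 to 5 higher calls. The difference between lines had medians of 0.524 to 0.723 for SWNT/CpG (0 to 1 lower), 0.373 to 0.487 for CpG (15 to 34 higher), -0.166 to -0.0251 for SWNT/LP (0 to 10 higher, 0 to 13 lower) and 0.207 to 0.326 for CpG+SWNT/LP (5 to 21 higher, 0 to 3 lower), and the untreated lines had 4 to 8 higher calls. Some genes not called with all libraries took opposite signs between left-out libraries. Only the anchors and the genes considered for naming were followed singly, so the examples given here are not a full list. In RAW-Blue they were Kif11 (-0.448 to 0.256) and Mki67 (-0.524 to 0.497) for SWNT/CpG, and Kif11 (-0.258 to 0.449) and Mki67 (-0.339 to 0.685) for CpG. For CpG+SWNT/LP they were Kif11 (-0.461 to 0.244) and Mki67 (-0.429 to 0.593). In untreated RAW-Blue against K-Luc they were Bub1 (-0.38 to 0.315), Kif22 (-0.186 to 0.178) and Mki67 (-0.699 to 0.276). These came with 1 untreated RAW-Blue library left out, when 1 control remains. The lowest count of any of the 40 genes was 208 reads, and the effect of depth was not tested.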
